A study of Sus scrofa with 6 samples.

Results

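The genes UNG, NEIL1, APEX1, APEX2, MSH6, EXO1 and POLH act on uracil, abasic sites and mismatches in DNA, or copy past damaged bases. They were taken by symbol from the 20648 genes in the files, and the list of 7 held only symbols present there. The gene of AID, the deaminase that acts on antibody genes, is not among them. Their transcripts were followed in scRNA-seq libraries of the ileum of male piglets at birth (day 0) and on days 1, 3, 7, 14 and 21, and each of the 6 ages was 1 library. No treatment or genotype is given by the labels, so age was the only difference named between the groups. The methods give 5 piglets per age and loaded 1 channel per age, and how the cells of the piglets were combined is not given in the sources used here. The series description names the cecum, whereas the sample labels and the study name the ileum. Age and library cannot be told apart, so no test was run between ages.

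A uracil in DNA can arise from deamination of cytosine, which germinal centre B cells carry out on purpose at their antibody genes. A uracil DNA glycosylase removes the base, an AP endonuclease cuts the abasic site left behind, and a short stretch is filled in again. In mismatch repair, by contrast, a recognition complex finds the wrong pair, an exonuclease chews back the strand, and a polymerase refills the gap. When antibody genes are diversified, these routes are used in an error-prone way, with a translesion polymerase filling gaps. In pigs the ileum carries a long continuous Peyer's patch, whose follicles are filled with dividing B cells.

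A barcode was used as a cell when it held at least 1000 unique molecular identifiers (UMIs, each one captured transcript) and at least 500 genes. This gave 76099 cells, between 10836 and 15956 per library, with median depths of 3693 to 4560 UMIs per cell. B cells were barcodes with at least 2 UMIs of MS4A1, PAX5 and POU2AF1 together and none of CD3E and CD3G. They made up 67.3% of all cells, with 2278, 3467, 7936, 10154, 14529 and 12854 cells on days 0, 1, 3, 7, 14 and 21. B cells without a UMI of TOP2A or PCLAF were called non-cycling and those with at least 2 were called cycling. The cycling cells were 120, 244, 1717, 2680, 7899 and 4410 B cells at these ages, and the non-cycling cells 2088, 3116, 5289, 6428, 5143 and 6520. Days 0 and 1 therefore rest on few cycling cells.

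The class names were checked with genes that the rule did not use. The summed level of CD79B, CD22, BLK and BANK1, surface proteins and signalling proteins of B cells, was 9.33 to 15.6 UMIs per 10000 in B cells and 0.225 to 1.48 in T cells (at least 2 UMIs of CD3E and CD3G, none of the B cell genes). Some of the smaller classes used in the comparisons were lower on day 0, with 5.47 in cycling B cells, 4.93 in the mitosis-leaning ones and 4.42 in cycling cells without germinal centre markers. Immunoglobulin-secreting cells were not separated from the B cells: JCHAIN, TXNDC5, MZB1 and PRDM1 summed to 5.16 to 9.40 UMIs per 10000 in them. The sum of 5 epithelial genes (EPCAM, KRT8, KRT19, CDH17 and VIL1) in non-cycling B cells was 7.82, 2.59, 0.226, 0.701, 0.09996 and 0.0112 UMIs per 10000 in order of age, and in cycling B cells 16.8, 3.15, 0.117, 0.238, 0.0620 and 0.00963. It was highest on days 0 and 1, and on those days higher in cycling than in non-cycling B cells. These are the ages with the lowest levels of most of the repair genes in non-cycling B cells, and the part of the epithelial RNA in the results was not tested. Between 31 and 68 cell barcodes were shared by any pair of libraries, at most 0.508% of the smaller one. The sizes of the barcode lists would give 18.1 to 32.4, each pair lay above its own value, and the cause was not tested.

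By the RefSeq annotation of Sscrofa11.1, MSH6 lies on chromosome 3 from 92792590 to 92814154 and EXO1 on chromosome 10 from 15317555 to 15360593. UNG lies on chromosome 14 from 41746498 to 41757841 and APEX2 on chromosome X from 47862682 to 47870579. Chromosome 7 carries POLH from 38569211 to 38601794, NEIL1 from 58261761 to 58269001 and APEX1 from 78451845 to 78454938. All are annotated as protein-coding. Ends of 3 of the genes overlap a neighbour, namely APEX1 with OSGEP over 272 bases, MSH6 with FBXO11 over 34 bases, and POLH with XPO5 over 348 bases and with GTPBP2 over 3032 bases. The strand of these neighbours was not used here, so reads in the overlaps could not be assigned with certainty. The counts come from transcript ends and were not scaled by length, so levels are compared within a gene and not between genes. Over all cells the genes gave 18578 (UNG), 29351 (NEIL1), 17080 (APEX1), 5730 (APEX2), 43631 (MSH6), 27479 (EXO1) and 12237 (POLH) UMIs.

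UNG, APEX2, MSH6, EXO1 and POLH were higher in cycling than in non-cycling B cells, by 1.82-fold for EXO1 up to 3.31-fold for POLH, and each was higher in all 6 libraries. NEIL1 and APEX1 did not pass the test in either direction. Counts were summed per library and class and compared with edgeR's quasi-likelihood test, with the library as a block and Benjamini-Hochberg adjustment over 14016 genes. Of these genes, 15.5% were called higher and 23.9% lower at an adjusted p under 0.05, 39.4% in either direction, beside which the 5 of 7 stand. The median log2 fold change of all genes tested was -0.15, and that of the 7 genes was 0.97.

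UNG encodes the main nuclear and mitochondrial uracil DNA glycosylase. In non-cycling B cells it gave 0.112, 0.132, 0.271, 0.234, 0.345 and 0.309 UMIs per 10000 on days 0, 1, 3, 7, 14 and 21. In cycling B cells the levels at the same ages were 0.594, 0.617, 1.03, 0.773, 0.771 and 0.912. Every cycling value was above every non-cycling value, so the groups did not overlap. The edgeR log2 fold change was 1.65 ± 0.12 (SE, n = 6 libraries, adjusted p = 3.8e-06), and the ratio within a library ran from 2.23 to 5.33. Barcodes with 100 UMIs or fewer, taken as a measure of free RNA, gave 0.119 to 0.530 UMIs per 10000 of UNG. That level was above the non-cycling B cells in 5 of 6 libraries and below the cycling B cells in all of them, and its part in the non-cycling values was not tested.

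NEIL1 encodes a glycosylase for oxidised bases that also cuts the strand. Its levels in non-cycling B cells were 0.146, 0.0983, 0.227, 0.803, 1.39 and 2.32 UMIs per 10000 on days 0, 1, 3, 7, 14 and 21, and in cycling B cells 0.252, 0.266, 0.389, 0.684, 1.10 and 1.48. Cycling cells had the higher level on days 0, 1 and 3 and the lower one on days 7, 14 and 21. The pooled log2 fold change was therefore near 0, at 0.04 ± 0.21 (SE, n = 6, edgeR adjusted p = 0.90). On day 0 the cycling level rested on 42 UMIs. Germinal-centre-marker-high cells, defined below, were 31.7% of cycling and 2.20% of non-cycling B cells on that day. Within the marker-high cells and within the cells free of these markers, cycling cells had the lower NEIL1 level on day 0. That rested on 38 marker-high cycling cells, and on 4 UMIs in 64 marker-free cycling cells. On days 1 and 3 the marker-high cycling cells had the higher level. It was at least 0.509 at every age, against 0.353 in marker-high non-cycling cells on day 1. The part of this mix in the direction by age was not tested.

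The AP endonuclease APEX1 cuts the DNA backbone at abasic sites, and APEX2 is a related enzyme known mainly for its exonuclease activity. APEX1 levels were 0.343, 0.393, 0.349, 0.489, 0.571 and 0.568 UMIs per 10000 in non-cycling B cells and 0.492, 0.413, 0.408, 0.457, 0.480 and 0.425 in cycling B cells, in order of age. The groups overlapped, with a log2 fold change of -0.15 ± 0.09 (SE, n = 6, edgeR adjusted p = 0.23). APEX2 levels were 0.0444, 0.0488, 0.0745, 0.119, 0.145 and 0.130 in non-cycling and 0.132, 0.148, 0.189, 0.242, 0.251 and 0.213 in cycling B cells. Each library had more APEX2 in its cycling cells, although a cycling value on day 0 lay below a non-cycling value on day 14. The log2 fold change of APEX2 was 0.97 ± 0.11 (SE, n = 6, edgeR adjusted p = 1.0e-04).

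MSH6 encodes the subunit of the mismatch recognition complex that reads single-base mismatches, and EXO1 the exonuclease that removes the strand. MSH6 levels in non-cycling B cells were 0.252, 0.237, 0.566, 0.658, 0.919 and 1.25 UMIs per 10000 on days 0, 1, 3, 7, 14 and 21, against 1.41, 0.938, 1.75, 1.68, 1.89 and 2.48 in cycling cells. The log2 fold change was 1.41 ± 0.15 (SE, n = 6, edgeR adjusted p = 5.8e-05), with ratios between 1.99 and 5.61 within libraries. For EXO1, non-cycling B cells gave 0.192, 0.377, 0.302, 0.725, 0.902 and 1.04 and cycling B cells 0.720, 0.868, 0.954, 1.08, 1.29 and 1.39. The EXO1 groups overlapped across ages, yet cycling cells were higher within each library. Its log2 fold change was the smallest of the 5 called, at 0.86 ± 0.17 (SE, n = 6, edgeR adjusted p = 0.0026). Without the library block it did not pass the test (adjusted p = 0.13).

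POLH encodes DNA polymerase eta, which copies past ultraviolet lesions and makes errors at A and T bases in antibody genes. Levels in non-cycling B cells were 0.0683, 0.0932, 0.0790, 0.131, 0.226 and 0.206 UMIs per 10000 in order of age. Cycling B cells gave 0.264, 0.281, 0.421, 0.404, 0.792 and 0.689, all above every non-cycling value. Their log2 fold change was 1.73 ± 0.11 (SE, n = 6, edgeR adjusted p = 1.5e-06).

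**Figure D1:**
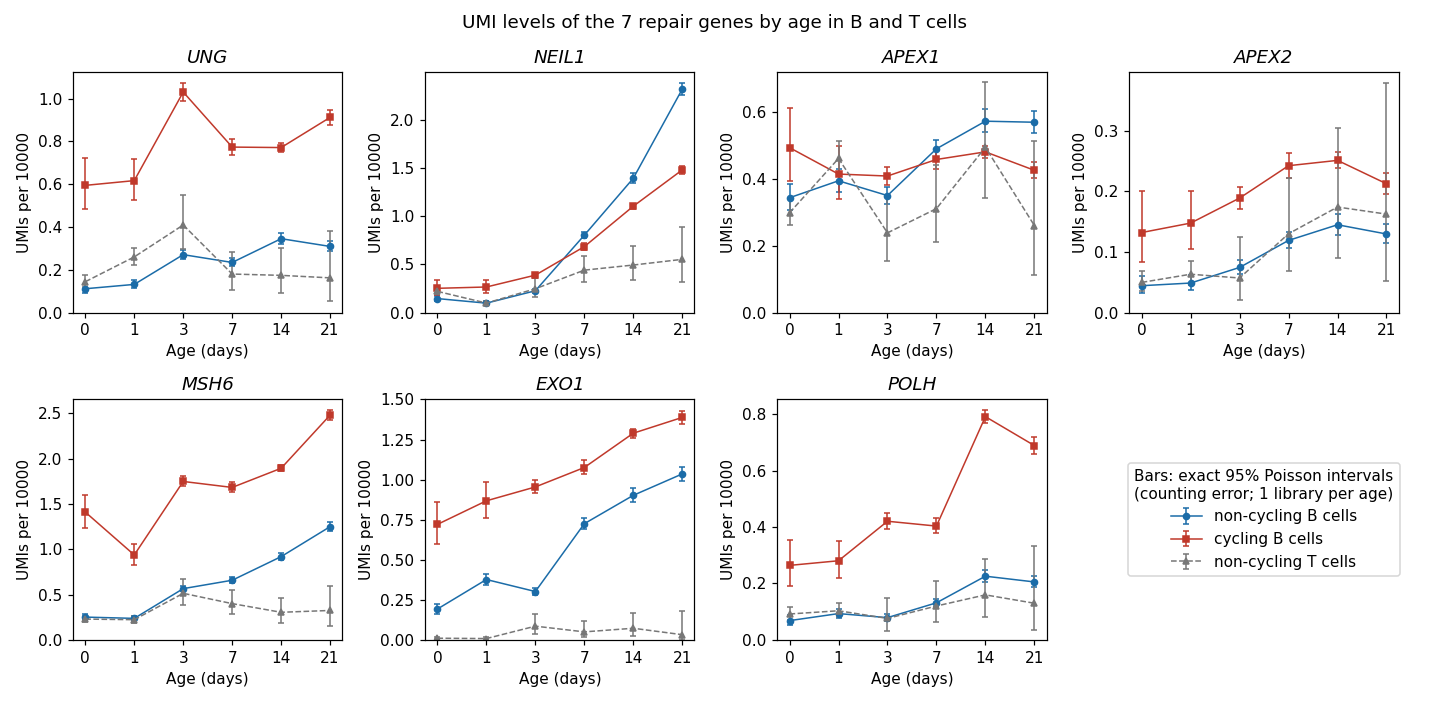
Levels of the 7 genes (vertical axes, UMIs per 10000 from 0, with a scale of its own per gene) at each age (horizontal axes, days, evenly spaced) in non-cycling B cells, cycling B cells and non-cycling T cells, with 1 library per age and bars for exact 95% Poisson intervals of counting error. UNG and POLH are higher in cycling B cells at every age, NEIL1 of non-cycling B cells climbs from 0.146 on day 0 to 2.32 on day 21, and EXO1 in T cells stays at or under 0.0857.

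Cycling B cells were deeper, with median depths of 5996 to 9038 UMIs per cell against 3049 to 3736 in non-cycling ones. With the classes kept as set at full depth, the same 5 genes passed the test when every cell was thinned to 1000 UMIs. The part of depth in which cells entered each class was not tested. These genes also passed when cells with over 3 times the median UMIs of their library and class were left out. Without days 0 and 1, where cycling cells were few, they passed as well. All 5 genes of resting or recirculating B cells were lower in the cycling cells (median log2 fold change -2.07). The plasma cell genes JCHAIN, TXNDC5, MZB1 and PRDM1 summed to 5.48 to 14.6 UMIs per 10000 (median 7.44) in non-cycling and 3.70 to 7.84 (median 5.10) in cycling B cells. The germinal centre markers GCSAM, RGS13, S1PR2 and MEF2B differed as well. Cells with at least 2 of their UMIs (marker-high) were 31.7% of cycling and 2.20% of non-cycling B cells on day 0. On day 21 they were 79.95 and 59.1%. The EXO1 median over libraries was 1.34 in cycling and 1.06 UMIs per 10000 in non-cycling marker-high cells. In cells with none of these UMIs it was 0.628 and 0.325. Of 7 other germinal centre genes, 1 was higher in cycling cells and 2 lower. The part of all these markers was not tested.

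Among cycling B cells, the position in the cycle separated the genes into opposite directions. Cells were called replication-leaning when MCM2 to MCM7, GINS2 and CDT1 outnumbered CCNB2, PLK1, UBE2C, CENPE, CENPF, AURKA and BUB1 in UMIs, and mitosis-leaning when the reverse held, with at least 2 UMIs in the larger sum. UNG, MSH6, APEX2 and APEX1 were higher in replication-leaning cells, POLH and NEIL1 were higher in mitosis-leaning cells, and EXO1 did not pass the test. In this comparison edgeR called 35.3% of 12776 genes, 16.6% higher and 18.7% lower in replication-leaning cells. There were 68, 129, 900, 1274, 3384 and 1948 replication-leaning and 44, 106, 703, 1219, 4182 and 2237 mitosis-leaning B cells in order of age.

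UNG differed most. Its levels were 0.963, 1.10, 1.57, 1.38, 1.56 and 1.66 UMIs per 10000 in replication-leaning cells and 0.141, 0.110, 0.357, 0.129, 0.205 and 0.268 in mitosis-leaning cells on days 0, 1, 3, 7, 14 and 21. The groups did not overlap, and the edgeR log2 fold change was 2.80 ± 0.12 (SE, n = 6, adjusted p = 4.9e-11), a 6.96-fold difference. The mitosis-leaning values lay within the range of the non-cycling B cells, 0.112 to 0.345, apart from day 1 just under it and day 3 just over it.

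MSH6 gave 1.97, 1.34, 2.30, 2.45, 2.84 and 3.68 UMIs per 10000 in replication-leaning and 0.749, 0.501, 1.07, 0.887, 1.22 and 1.44 in mitosis-leaning cells. Replication-leaning cells were 2.14 to 2.76 times higher within each library, a narrow range, with a log2 fold change of 1.34 ± 0.06 (SE, n = 6, edgeR adjusted p = 7.2e-11). APEX1 and APEX2 differed less, by 0.50 ± 0.06 (adjusted p = 1.3e-05) and 0.62 ± 0.08 (adjusted p = 1.6e-05) on the log2 scale (SE, n = 6, edgeR), and both were higher in replication-leaning cells of all 6 libraries. For APEX1 this stands beside its lack of a called difference between cycling and non-cycling cells as a whole.

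POLH ran the other way. Replication-leaning cells gave 0.219, 0.225, 0.339, 0.219, 0.457 and 0.372 UMIs per 10000 and mitosis-leaning cells 0.339, 0.352, 0.545, 0.612, 1.04 and 0.982. It was lower in replication-leaning cells of all 6 libraries, with a log2 fold change of -1.13 ± 0.10 (SE, n = 6, edgeR adjusted p = 2.1e-07). Both classes were nevertheless above the non-cycling B cells of their own library at every age.

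NEIL1 levels were 0.120, 0.254, 0.288, 0.518, 0.903 and 1.28 UMIs per 10000 in replication-leaning and 0.438, 0.274, 0.523, 0.867, 1.25 and 1.65 in mitosis-leaning cells. Mitosis-leaning cells were higher in every library, with a log2 fold change of -0.56 ± 0.08 (SE, n = 6, edgeR adjusted p = 4.8e-05). EXO1 levels were 0.634 to 1.30 in replication-leaning and 0.720 to 1.49 in mitosis-leaning cells, a log2 fold change of -0.06 ± 0.07 (SE, n = 6, edgeR adjusted p = 0.54). Without the library block, NEIL1, APEX1, APEX2 and POLH did not pass the test (adjusted p = 0.81, 0.054, 0.099 and 0.086), while UNG and MSH6 did. Germinal centre genes moved with the cycle position: of 7, 3 were lower in replication-leaning cells, among them MYBL1 at -0.43 and BCL6 at -0.41 on the log2 scale, and 1 was higher. Their sum had a median of 6.37 UMIs per 10000 in replication-leaning and 8.28 in mitosis-leaning cells. The 5 epithelial genes summed to 13.4 and 21.7 on day 0. The part of these markers in the results was not tested.

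**Figure D2:**
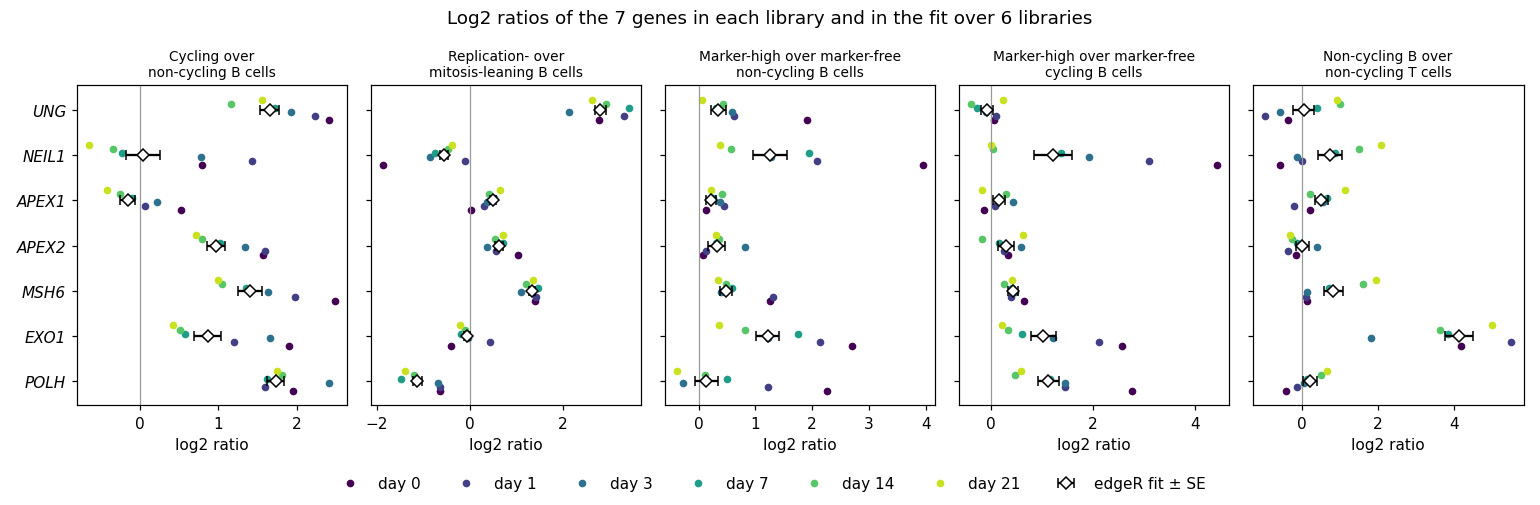
Log2 ratios of levels between cell classes (horizontal axes) for each of the 7 genes (rows) in 5 comparisons (panels), with a filled point per library and an open diamond for the edgeR fit over 6 libraries with its SE. Points use unscaled levels and the diamonds TMM-scaled fits. In the second panel the points of UNG and MSH6 all lie right of 0 and those of POLH and NEIL1 left of it, and in the last panel EXO1 stands at 4.13 while APEX2 stands at 0.00.

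A finer scale was chosen after these results were seen and is given without a test. Cycling B cells with at least 5 UMIs of the replication and mitosis genes were sorted by the share of those UMIs that came from the replication genes, in steps of 20%. Summed over the libraries, UNG gave 0.0698 UMIs per 10000 in the lowest step, then 0.303, 0.687, 1.39 and 2.003 in the highest. MSH6 gave 0.695, 1.62, 2.16, 2.88 and 2.92, so that the last steps differed little. POLH gave 1.09, 0.726, 0.549, 0.429 and 0.260 in the same order.

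In the same sums, to which days 14 and 21 gave most cells, NEIL1 stood at 1.44 in the lowest step and between 0.754 and 0.906 in the other 4. Its lowest step was the highest on days 0, 7, 14 and 21, whereas on day 3 the next step was highest (0.658 against 0.432) and on day 1 the last (0.318 against 0.252). EXO1 summed to between 1.10 and 1.32 in all steps, but the libraries went different ways. Between the lowest and the highest step it went from 2.31 to 0.854 on day 0, from 0.772 to 1.16 on day 1 and from 0.699 to 0.852 on day 3, and on days 7, 14 and 21 from 1.27 to 0.958, 1.35 to 1.25 and 1.53 to 1.19. From the lowest to the highest step of the sums, APEX1 went from 0.337 to 0.569 and APEX2 from 0.165 to 0.276. Single libraries did not rise at each step. On day 0 the middle step of APEX1 was highest, at 0.751 from 17 cells. On day 14 the fourth step of APEX2 (0.333) was above the last (0.307). In the sums of single libraries, UNG was 0 to 0.106 in the lowest step and 1.13 to 2.19 in the highest, without overlap, and POLH was 0.371 to 1.28 against 0.131 to 0.330. The POLH sums fell at each step on days 7, 14 and 21, but on day 3 the second step was highest (0.670 against 0.450 in the lowest), on day 1 the fourth (0.283) was above the third (0.235), and on day 0 the lowest step gave 1.21 from 23 cells and the other 4 gave 0 to 0.244 without order.

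With age, all 7 genes had a higher level in non-cycling B cells on day 21 than on day 0, each as a comparison of 1 library with another. The ratio of day 21 to day 0 was 15.9 for NEIL1 (95% counting interval 13.3 to 19.1), 5.38 for EXO1 (4.599 to 6.33) and 4.97 for MSH6 (4.33 to 5.72). It was 3.01 for POLH, 2.92 for APEX2, 2.77 for UNG and 1.66 for APEX1. Among 10827 genes with at least 50 UMIs, 25% were at least 2-fold higher on day 21 and the median ratio was 1.37, so 6 of the 7 were past that fold. The order of ages for NEIL1 was day 1, 0, 3, 7, 14 and 21 from lowest to highest, and no neighbours in that order had overlapping counting intervals. The makeup of the non-cycling B cells differed between these ages: cells with at least 2 UMIs of the germinal centre markers GCSAM, RGS13, S1PR2 and MEF2B made up 2.20% of them on day 0 and 59.1% on day 21. Within these marker-high cells EXO1 was 1.03 on day 0 and 1.10 on day 21, and NEIL1 1.4997 and 2.38. In cells without a UMI of the markers EXO1 was 0.158 and 0.850, and NEIL1 0.0966 and 1.83. On day 0 the marker-high class held 46 cells. The median depth of the marker-free cells was 3342 UMIs on day 0 and 2396 on day 21. The parts of class levels, shares and depth in the age ratios of all non-cycling B cells were not tested.

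In cycling B cells the ratios were smaller for every gene. Their day 0 class held 120 cells. The 5 epithelial genes summed to 16.8 UMIs per 10000 in it and to 0.00963 on day 21, and their part in the ratios was not tested. NEIL1 was 5.87 times higher on day 21 than on day 0 (4.33 to 8.15) and POLH 2.61 times (1.94 to 3.60). EXO1, MSH6, APEX2 and UNG stood at 1.93, 1.76, 1.61 and 1.53, and APEX1 at 0.863 (0.690 to 1.09), whose interval holds 1. Among 10294 genes, 15.6% were at least 2-fold higher and the median ratio was 1.14. UNG in cycling cells was highest on day 3, at 1.03, and POLH on day 14, at 0.792, rather than on day 21. The replication-leaning share of cycling B cells was 56.7, 52.9, 52.4, 47.5, 42.8 and 44.2% in order of age. Within replication-leaning cells UNG was highest on day 21, at 1.66, and within mitosis-leaning cells on day 3, at 0.357. POLH was highest on day 14 in both. The part of this mix in the levels by age was not tested. The marker-high share of cycling B cells was 31.7% on day 0 and 79.95% on day 21. Within marker-high cycling cells the direction was the opposite for EXO1, at 1.95 on day 0 and 1.40 on day 21, while NEIL1 was 0.977 and 1.45. On day 0 this class held 38 cells. EXO1 had 37 UMIs in 24 replication-leaning and 39 in 14 mitosis-leaning cells, and NEIL1 had 11 and 27. POLH in the marker-high cycling cells was 0.771 and 0.704. Its day 0 value came from 11 UMIs in 24 replication-leaning and 19 UMIs in 14 mitosis-leaning cells, too few to give a direction. In marker-free cycling cells EXO1 was 0.329 and 1.20, POLH 0.113 and 0.470 and NEIL1 0.0453 and 1.44. Their day 0 values came from 64 cells and few counts. EXO1, POLH and NEIL1 had 17, 7 and 0 UMIs in 34 replication-leaning cells. In 22 mitosis-leaning cells they had 9, 3 and 4.

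Low-UMI barcodes carried the same order of ages for NEIL1, with 0.123, 0.0872, 0.223, 0.648, 1.16 and 1.90 UMIs per 10000. EXO1 in them gave 0.0479, 0.0808, 0.311, 0.508, 0.749 and 0.931, and MSH6 0.274, 0.217, 0.706, 0.568, 1.02 and 1.54. Their part in the age differences of the cells was not tested.

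To see whether the genes went with a germinal centre state, marker-high and marker-free B cells were compared within the non-cycling and within the cycling class. Marker-high cells held at least 2 UMIs of GCSAM, RGS13, S1PR2 and MEF2B together, and marker-free cells held none. NEIL1, EXO1 and MSH6 were higher in the marker-high cells among non-cycling B cells. POLH, EXO1 and MSH6 were higher in them among cycling B cells. UNG, APEX1 and APEX2 passed the test in neither state. The share of marker-high cells among non-cycling B cells was 2.20, 2.12, 4.93, 32.2, 59.2 and 59.1% on days 0, 1, 3, 7, 14 and 21, and among cycling B cells 31.7, 21.3, 41.7, 70.7, 85.0 and 79.95%.

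The marker classes were checked with genes outside the rule. Among non-cycling cells, 5 of 7 other germinal centre genes were higher in the marker-high cells and 1 was lower, with IL4I1, an amino acid oxidase of germinal centre cells, at a log2 fold change of 1.65 and the transcription factor MYBL1 at 2.01. CD38 was the lower one, at -1.06. All 5 genes of resting or recirculating B cells were lower, with CCR7, a homing receptor, at -2.23 and KLF2 at -2.22. Among cycling cells, 2 of the 7 were higher and 1 lower, and all 4 resting genes tested were lower. Markers of other cells moved with these classes as well. The plasma cell genes JCHAIN, TXNDC5, MZB1 and PRDM1 summed to 8.07 to 14.4 UMIs per 10000 (median 10.0) in marker-high and 5.16 to 13.6 (median 5.94) in marker-free non-cycling cells, and to medians of 6.64 and 4.35 in the cycling ones. The 5 epithelial genes summed to 0.694 in marker-high and 20.9 in marker-free cycling cells on day 0, and to 4.36 and 8.02 in the non-cycling ones. The 5 myeloid genes reached 6.13 in marker-high and 1.72 in marker-free non-cycling cells on day 1 and stayed at or under 0.156 at other ages. In cycling cells on day 1 they were at 0.0277 in marker-high and 1.54 in marker-free cells. The 3 stromal genes COL1A1, COL1A2 and COL3A1 reached 2.997 in marker-high non-cycling cells on day 3, against 0.358 in the marker-free ones, and were at or under 0.655 in the other libraries and classes. Their part in the results was not tested.

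Among non-cycling B cells, EXO1 levels were 1.03, 1.41, 0.579, 1.11, 1.00 and 1.10 UMIs per 10000 in marker-high cells and 0.158, 0.322, 0.248, 0.328, 0.571 and 0.850 in marker-free cells, in order of age. Marker-high cells were higher in all 6 libraries, 6.54 times on day 0 and 1.29 times on day 21. Over the libraries the log2 fold change was 1.22 ± 0.20 (SE, n = 6, edgeR adjusted p = 0.0022). NEIL1 gave 1.4997, 0.353, 0.461, 1.28, 1.49 and 2.38 against 0.0966, 0.0837, 0.191, 0.331, 1.01 and 1.83, with day 21 highest in both classes. Its log2 fold change was 1.26 ± 0.30 (SE, n = 6, edgeR adjusted p = 0.015), and without day 7 it was 1.08 and did not pass (adjusted p = 0.075).

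MSH6 was 0.562, 0.530, 0.708, 0.794, 0.968 and 1.31 UMIs per 10000 in marker-high and 0.235, 0.214, 0.536, 0.526, 0.694 and 1.03 in marker-free non-cycling cells. The log2 fold change of 0.49 ± 0.11 (SE, n = 6, edgeR adjusted p = 0.0098) was smaller than its cycling difference. UNG, APEX2, APEX1 and POLH had log2 fold changes of 0.35, 0.32, 0.22 and 0.13 (adjusted p = 0.12, 0.20, 0.13 and 0.75). The first 3 were higher in marker-high cells of all 6 libraries. Of 12720 genes, 13.1% were called by edgeR, 5.12% higher and 8.01% lower. None of the 3 calls held without the library block (adjusted p = 0.11 for EXO1, 0.46 for NEIL1 and 0.39 for MSH6).

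Marker-high cells on days 0 and 1 numbered 46 and 66 among non-cycling B cells. Without those days EXO1, NEIL1 and MSH6 passed as well. Median depths were 3359 to 5823 UMIs in marker-high and 2396 to 3591 in marker-free non-cycling cells. With the classes kept, the 3 calls were also made after thinning to 1000 UMIs per cell.

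Among cycling B cells, POLH levels were 0.771, 0.540, 0.541, 0.451, 0.809 and 0.704 UMIs per 10000 in marker-high and 0.113, 0.198, 0.198, 0.203, 0.583 and 0.470 in marker-free cells. The marker-high cells were higher in all 6 libraries, by 1.39 to 6.81 times, and the groups overlapped only through days 14 and 21 of the marker-free cells. The log2 fold change was 1.13 ± 0.20 (SE, n = 6, edgeR adjusted p = 0.0075), and without day 3 the adjusted p was 0.0503, over the threshold. EXO1 gave 1.95, 1.59, 1.19, 1.14, 1.29 and 1.40 against 0.329, 0.366, 0.509, 0.746, 1.02 and 1.20. The ratio was widest on day 0, at 5.95 from 38 and 64 cells, and narrowest on day 21, at 1.16. A trend of this ratio with age was not tested. Its log2 fold change of 1.03 ± 0.25 (SE, n = 6, edgeR adjusted p = 0.029) did not pass without day 1 (0.86, adjusted p = 0.079), day 3 (0.95, 0.12) or day 7 (1.15, 0.079).

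MSH6 gave 1.98, 1.08, 1.95, 1.79, 1.90 and 2.52 in marker-high and 1.26, 0.820, 1.39, 1.34, 1.59 and 1.89 in marker-free cycling cells. The log2 fold change was 0.44 ± 0.09 (SE, n = 6, edgeR adjusted p = 0.017) and did not pass without day 3 (adjusted p = 0.063) or day 7 (adjusted p = 0.082). NEIL1 was higher in all 6 libraries, from 21.6 times on day 0 (38 UMIs in 38 marker-high and 4 UMIs in 64 marker-free cells) to 1.01 times on day 21, with a log2 fold change of 1.23 ± 0.37 that missed the threshold (SE, n = 6, edgeR adjusted p = 0.070). It passed in 5 of 17 alternatives, whose adjusted p ran from 0.00017 to 0.61. UNG had -0.07 ± 0.11, with marker-high cells higher in 3 of 6 libraries. APEX1 and APEX2 stood at 0.16 and 0.30 (adjusted p = 0.49 and 0.28). In this comparison 7.41% of 10384 genes were called, 2.9% higher and 4.51% lower, and none of the 3 calls held without the library block (adjusted p = 0.13 for EXO1, 0.36 for MSH6 and 0.15 for POLH).

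The marker-high cycling cells were deeper in every library, with median depths of 6465 to 15306 UMIs per cell against 3432 to 7483 in marker-free ones. The class rule itself asks for at least 2 marker UMIs, and the part of depth in which cells entered each class was not tested. The gap was widest on day 3, at 15306 against 6735. After thinning every cell to 1000 UMIs, with the classes kept, the 3 genes passed the edgeR test, with smaller log2 fold changes of 0.83 for POLH and 0.62 for EXO1 and with 0.45 for MSH6 (adjusted p = 0.0052, 0.0037 and 0.027).

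**Figure D3:**
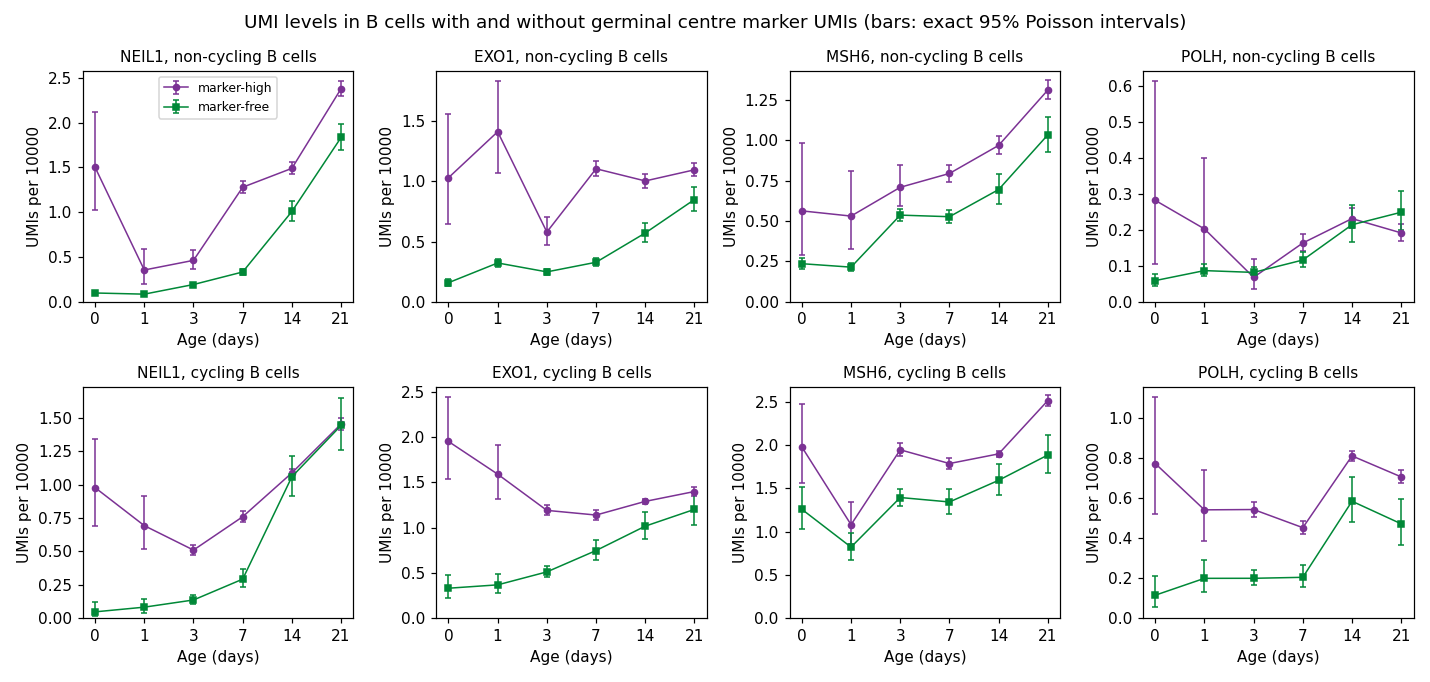
Levels of NEIL1, EXO1, MSH6 and POLH (vertical axes, UMIs per 10000 from 0) at each age (horizontal axes, days, evenly spaced) in marker-high and marker-free B cells, non-cycling in the upper row and cycling in the lower row, with 1 library per age and bars for exact 95% Poisson intervals. EXO1 is higher in marker-high cells at every age in both rows, and the NEIL1 curves of cycling cells meet on day 21 at 1.45 and 1.44.

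Because POLH and MSH6 also went with the cycle position, the mix of positions was counted. Mitosis-leaning cells were 36.8, 51.9, 40.9, 47.2, 54.1 and 50.9% of marker-high cycling B cells and 34.4, 40.6, 40.9, 38.9, 48.3 and 51.8% of marker-free ones, in order of age. Within mitosis-leaning cells alone, POLH was higher in marker-high cells in all 6 libraries, with a median over libraries of 0.850 against 0.298 UMIs per 10000. In replication-leaning cells the medians of POLH were 0.400 and 0.163, and marker-high cells were again higher in all 6, though on day 14 only at 0.467 against 0.418 with 36 UMIs in the marker-free cells. On days 0 and 1 these classes held 14 to 80 cells and 3 to 29 UMIs of POLH each, few for a comparison within 1 library. EXO1 was also higher in all 6 libraries in each position, with medians of 1.38 against 0.669 in mitosis-leaning and 1.26 against 0.614 in replication-leaning cells. MSH6 was higher in all 6 libraries in replication-leaning cells and in 4 of 6 in mitosis-leaning cells.

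The marker difference in cycling cells was compared with that in non-cycling cells by an interaction term. Its block was common to all sums of a library, with 15 residual degrees of freedom. Changes of the marker difference between libraries thus went into the residual. None of the 7 genes passed, and edgeR called 1 of 11831 genes (0.00845%), with 980 (8.28%) at an unadjusted p under 0.05. DESeq2 called 15 of the 1968 genes it tested. The difference was 0.89 ± 0.30 for POLH on the log2 scale (SE, n = 6, edgeR adjusted p = 0.45) and -0.48 ± 0.17 for UNG (adjusted p = 0.47). The called difference of POLH in cycling cells and the missing call in non-cycling cells are therefore not shown to differ.

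T cells of the same libraries served as another lymphocyte. EXO1 and MSH6 were higher in non-cycling B cells than in non-cycling T cells, and the other 5 genes did not pass the test. Non-cycling T cells numbered 1719, 1518, 234, 250, 224 and 115 in order of age, so the later libraries rest on few T cells. EdgeR called 27.1% of 12939 genes, with 14.9% higher and 12.2% lower in B cells.

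EXO1 in non-cycling T cells was 0.0105, 0.00826, 0.0857, 0.0501, 0.0726 and 0.0325 UMIs per 10000, from 1 to 9 UMIs per library. Non-cycling B cells were above every one of these values, at 3.52 to 45.6 times the T cells of their own library. In edgeR this was a log2 fold change of 4.13 ± 0.36 (SE, n = 6, edgeR adjusted p = 1.7e-05), the widest gap of the 7 genes. A UMI of EXO1 was found in 5.99, 11.104, 8.38, 18.3, 22.7 and 25.1% of non-cycling B cells, against 1 to 6 T cells per library, at median depths of 3049 to 3736 and 2524 to 4098 UMIs per cell. Epithelial-like cells gave 0.0281 on day 0, from 102 UMIs, and 0.0208 on day 1, from 38 UMIs. Low-UMI barcodes held more EXO1 than the T cells in every library.

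MSH6 in non-cycling T cells was 0.230, 0.223, 0.514, 0.400, 0.305 and 0.325, close to the non-cycling B cells on days 0, 1 and 3 and below them later. Its log2 fold change was 0.81 ± 0.25 (SE, n = 6, edgeR adjusted p = 0.036), and it did not pass without day 7, 14 or 21 (adjusted p = 0.095, 0.088 and 0.067), without days 14 and 21 together (0.43, adjusted p = 0.069) or after thinning (adjusted p = 0.076). NEIL1 was 0.0991 to 0.552 in these T cells and its log2 fold change was 0.74 ± 0.32 (adjusted p = 0.12). Without day 0 it was 1.00 and passed (adjusted p = 0.035). APEX1 had 0.50 ± 0.17 (adjusted p = 0.055) and passed in 5 of 16 alternatives, with an adjusted p of 0.015 to 0.26. The other log2 fold changes were 0.20 ± 0.19 for POLH (adjusted p = 0.73), 0.03 ± 0.27 for UNG (adjusted p = 0.96) and 0.00 ± 0.17 for APEX2 (adjusted p = 1.0), all SE with n = 6 in edgeR.

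The genes most like each member were ranked over 33 sums of library and cell class with at least 50 cells, by Pearson's r of log2 levels among 8525 genes. The sums share libraries, and some classes were cut by the cycle genes themselves, so the r values are descriptions. UNG was most like MCM2, MCM5 and MCM4 (r = 0.925, 0.918 and 0.916), subunits of the replicative helicase that the replication sum also used. MSH6 was most like MCM6, BARD1 and MCM3 (0.961, 0.952 and 0.9496). POLH went with RAD21, a cohesin subunit (0.949), and HYLS1 (0.945), while its r with UNG was 0.418.

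EXO1 was most like FCRLA, an Fc receptor-like protein of B cells (0.970), LOC100523213 (0.968) and VPREB1, a surrogate light chain (0.965). APEX2 was most like MARS (0.919), CDT1 (0.900) and CHAF1A (0.899), and APEX1 like RIOX2, RPL15 and TAF9 (0.868, 0.857 and 0.856). Among the members, UNG and MSH6 were the closest pair (0.893), and UNG and NEIL1 the least alike (0.387).

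NEIL1 was most like COMMD4 (0.963), GCSAM (0.942), a germinal centre gene of the marker rule, and INTS2 (0.934). COMMD4 is also the next annotated gene on the chromosome, from 58276954 to 58283128, 7953 bases beyond the end of NEIL1. It gave 0.654, 0.715, 0.966, 2.11, 3.12 and 3.81 UMIs per 10000 in non-cycling B cells in order of age, the order of NEIL1 apart from days 0 and 1. COMMD4 was higher in marker-high non-cycling B cells too, with a log2 fold change of 0.90 ± 0.17 (SE, n = 6, edgeR adjusted p = 0.0038). MAN2C1, which ends 557 bases before NEIL1, had an r of -0.53 and stayed between 0.0388 and 0.0574 in non-cycling B cells. Whether reads of one gene were counted for the other was not tested.

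Other genes of the same routes were followed as lists, beside 15.5% of all genes called higher and 23.9% lower in the cycling comparison. Of 18 further base excision repair genes, 10 were higher and 3 lower in cycling than in non-cycling B cells, with NEIL3, a glycosylase of dividing cells, at a log2 fold change of 4.33 and the DNA ligase LIG1 at 2.17. SMUG1, another uracil glycosylase, was lower at -0.54, and LIG3 at -0.45. Of 19 listed genes of mismatch repair and resynthesis, 18 were in the files. Among these, 15 were higher and 1 lower, with the sliding clamp PCNA at 2.05 and its loader subunit RFC4 at 1.86. The list medians were 0.31 and 1.06 on the log2 scale, against -0.15 for all genes.

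Of 11 translesion and gap-filling genes, 5 were higher and 3 lower, with POLQ at 2.002, RAD18 at 1.25, REV3L at -0.49 and POLI at -0.41. Of 11 listed end joining genes, 10 were in the files, with 3 higher and 1 lower. In these short lists the shares lower were near or under that of all genes. HMCES, which shields abasic sites in single-stranded DNA, was higher at 1.69 and TP53BP1 lower at -0.38. The medians of these lists were 0.10 and 0.16.

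Between replication-leaning and mitosis-leaning cells, 14 of the 18 mismatch repair and resynthesis genes were higher in the former and 2 lower, with POLD2, a replicative polymerase subunit, at 1.20 and POLD4 at -0.63. Base excision repair genes split into 6 higher and 3 lower, with FEN1 at 0.77 and XRCC1 at -0.29. Translesion genes split into 3 higher and 4 lower, with POLQ at -0.88, the direction of POLH. Over all genes 16.6% were higher and 18.7% lower. End joining genes split into 3 and 3, with PRKDC at 0.52 and HMCES at -0.51.

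In marker-high against marker-free cells fewer genes of the lists passed the test, as did fewer of all genes, 5.12% higher in the non-cycling and 2.9% higher in the cycling comparison. Among non-cycling B cells, 3 base excision repair genes were higher and 1 lower, 4 mismatch repair and resynthesis genes higher, 1 translesion gene in each direction and 1 of 9 end joining genes higher. MBD4, a glycosylase for thymine and uracil opposite guanine, stood at 0.83, RFC3 at 0.87 and HMCES at 2.11. Among cycling B cells the counts higher were 3 of 17, 3 of 18, 1 of 11 and 1 of 9 with none lower, and HMCES stood at 2.18. HMCES thus had a larger fold change there than any of the 7 genes.

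Against T cells, 14 of the 18 mismatch repair and resynthesis genes were higher in non-cycling B cells and none lower, with POLD1 at 2.16 and POLD4 at 1.63. Of the base excision repair genes 5 were higher, MBD4 at 1.66 and FEN1 at 1.15 among them, and POLB was lower at -0.36. Translesion genes were higher in 4 of 11 cases, with POLQ at 2.25, and end joining genes in 2 of 9, with XRCC4 at 0.61. Over all genes tested 14.9% were higher and 12.2% lower.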

How the data were processed

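Libraries were made with the 10x 3' chemistry, version 3 by the labels and version 2 by the methods. The authors aligned and counted reads with Cell Ranger 3.1.0 (with STAR) against Sscrofa11.1 and deposited unfiltered raw UMI counts per gene and barcode, without normalization. Library totals were 77391932 to 100348769 UMIs. Samples were grouped by the age in the labels, and positions were matched by symbol to the RefSeq table of Sscrofa11.1.

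The 7 genes, the lists and the cell classes were chosen with earlier results of these data known. Named genes were the 7, up to 4 called genes with the highest and lowest fold of each list, and the 3 most alike genes (log2 of UMIs per 10000 plus 0.1, mean level of at least 0.1). The neighbours of NEIL1 and the genes overlapping a member were named after their values were seen.

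UMIs were summed per library and class (at least 10 cells) and fitted in R 4.3.3 with edgeR 4.0.16 (TMM, filterByExpr, quasi-likelihood F test, library as a block, Benjamini-Hochberg over all genes tested). The SE beside an edgeR fold change is the size of that log2 fold change divided by the square root of its F statistic. It is not an SE that edgeR reports. The 6 libraries differ in age, so the p-values measure the spread of a within-library difference over these libraries. Libraries are the pairs because both classes come from the same sample. Exact Poisson and Clopper-Pearson 95% intervals (scipy 1.17.1, Python 3.11.15) cover counting error only. No doublet caller was run. In simulated cycling and non-cycling sums with 14016 genes, 92% of 3-fold and 19% of 1.5-fold changes were recovered, at a false discovery rate of 2.63%. Those sums held 100 changed genes at each fold, the same dispersion for every gene and no difference between ages. The data differ from these settings, so the rates do not carry over to the fits above.

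Alternatives changed the test (DESeq2 1.42.0), scaling, filter, block, depth per cell, cell minimum, mitochondrial share, class rules and cells above 3 times the median UMIs, or left out libraries. Leaving out days 0 and 1, or 14 and 21, together was chosen after seeing the data. One planned marker of the B cell check is not reported here.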

Additional observations from a re-analysis of the deposited data

How the results depend on the processing

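Of 696 fold changes of the 7 genes recomputed under alternatives, 662 stayed on their side of the threshold, 23 no longer passed and 11 newly passed. The sign changed in 35 of them, from 10 results such as NEIL1 in the cycling and UNG and APEX2 in the T cell comparison, none of which was called in either fit. The libraries are the pairs, since both classes of a comparison come from the same library. Without the replicate block the counts of genes called higher and lower were 1295 and 537 for cycling, 133 and 191 for replication-leaning, 9 and 17 for marker-high non-cycling, 6 and 10 for marker-high cycling, 1147 and 1045 for B against T cells, and 0 higher for the interaction. With each cell thinned to 1000 UMIs, they were 1410 and 1288 for replication-leaning, 132 and 275 for marker-high cycling, and 6 and 3 for the interaction. Without a filter on low counts, 543 were higher in marker-high cycling cells and 2 and 5 in the interaction. DESeq2 gave 11 and 4 in the interaction, the B cell rule of 3 UMIs gave 2 lower, and RLE factors, the higher cell minimum, the mitochondrial limit, the cycling rule of 4 UMIs, the removal of cells with the most UMIs and of days 0 and 1 each gave 0 higher. The causes were not tested.

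Leaving out each library in turn gave 1698 to 2856 genes higher and 2340 to 2990 lower for cycling, 1623 to 2367 and 1638 to 2555 for replication-leaning, 236 to 744 and 529 to 1031 for marker-high non-cycling, 37 to 447 and 175 to 733 for marker-high cycling, 0 to 1 and 0 to 3 for the interaction, and 1436 to 1763 and 1219 to 1498 for B against T cells. The cycling rule has no bearing on the non-cycling comparisons. Of 252 levels, 31 moved by more than counting error, 30 of them as means over cells, and all 84 shares of cells with a UMI were lower after thinning.

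Limits: with 1 library per age, nothing between ages is replicated. Days 0 and 1 hold few cycling and few marker-high B cells, and days 3 to 21 few T cells. The marker comparisons rest on single libraries more than the cycling and replication ones. Class rules use a handful of genes, so cells with few UMIs can miss their class.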
